A study of Homo sapiens with 4 samples.

Results

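The 10 genes HSPA5, HSP90B1, CALR, SDF2L1, DNAJC3, DNAJB9, PDIA4, HERPUD1, EDEM1 and XBP1 act in protein folding and quality control in the endoplasmic reticulum (ER), and were taken by their symbols from the 58735 genes of the FPKM table of colorectal cancer cells. Each symbol matched 1 row, and all 10 were among the 14429 genes compared, those whose FPKM averaged 1 or more over the libraries. FPKM is the count of fragments on a gene scaled to the length of the gene and to the size of the library. HSPA5 was the most abundant of the 10 in HCT116, at 1073 FPKM in adherent cells and 219 FPKM in spheroids. All 10 genes were lower in HCT116 spheroids than in adherent HCT116 cells (53.4% of all genes compared), and 6 of them by more than 1 on the log2(FPKM + 1) scale (3.33% of all genes), whereas 8 of the 10 were higher in LOVO spheroids than in adherent LOVO cells (45.5%). HERPUD1 and XBP1 were lower in both kinds of spheroids. The 10 genes were chosen with earlier results of these data known, so the shares of all genes beside them are a description and not a test.

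The series holds 4 RNA-seq libraries, from adherent cells and spheroids of HCT116 and of LOVO (1 library each), which are lines grown from human colorectal cancers and are labelled wild type. Adherent cells had no treatment and were kept in RPMI-1640 with fetal bovine serum, while for spheroids the study's methods describe ultralow attachment dishes and serum-free DMEM/F12 with B27, N2, bFGF and EGF for 2 weeks. The paper's account of spheroid formation names oxaliplatin, a platinum drug, at 1 μg/ml, its culture methods do not, and the labels give 1 mg/ml without the name of an agent. Growth form, medium and drug therefore cannot be told apart in any value below, and with 1 library per condition no fold change has a replicate check. The recovered reads on genes ranged from 15483569 to 20429147 per library, and 95% exact binomial (Clopper-Pearson) intervals from these reads compare the 2 libraries of a pair for counting error only.

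The labelled cell type was compared with colon epithelium markers. In HCT116, 6 of 10 markers reached 1 FPKM in adherent cells and 7 of 10 in spheroids, and their summed level was 1754 and 1288 FPKM. In the libraries labelled LOVO, 3 and 4 of 10 reached 1 FPKM, and the sums were 327 and 187 FPKM, carried by the keratins KRT8, KRT18 and KRT19. The epithelial adhesion gene CDH1 was at 31.1 FPKM in both HCT116 libraries, against 0.117 FPKM in adherent LOVO cells and 0.00805 FPKM in LOVO spheroids. EPCAM was at 0.93 FPKM and 1.50 FPKM in the LOVO libraries, and CDX2, a transcription factor of intestinal epithelium, was listed at 0 in both. Summed fibroblast markers (4 genes) were at 5.60 and 16.0 FPKM in HCT116 and 22.6 and 22.4 FPKM in LOVO, with the matrix gene DCN at 0 in HCT116 and at 10.4 and 9.97 FPKM in LOVO. COL3A1 and PDGFRB were also higher in LOVO in either growth form. COL1A1 was not, at 5.51 and 15.5 FPKM in adherent cells and spheroids of HCT116 and 9.89 and 6.10 FPKM in those of LOVO. The 3 endothelium markers summed to between 0.254 and 1.13 FPKM in 3 libraries and to 7.84 FPKM in LOVO spheroids, mostly PECAM1 at 6.35 FPKM. The 3 leukocyte markers summed to between 0.148 and 1.83 FPKM. The epithelial markers thus go against the LOVO label, which is kept below only as the name of those 2 libraries. The HCT116 comparison rests on no LOVO library apart from the filter. With the filter set on the HCT116 libraries alone, a setting chosen after seeing the data, 14037 genes were compared. Of the 10 genes, 6 were again lower by more than 1 on the log2(FPKM + 1) scale, beside 3.53% of genes.

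Proteins that enter the ER are folded by chaperones and disulfide isomerases, and those that fail to fold are sent back to the cytosol for degradation. When unfolded proteins build up, the sensors IRE1, PERK and ATF6 start the unfolded protein response. IRE1 splices XBP1 mRNA into the form that encodes an active transcription factor, PERK reduces translation but favours that of ATF4, and ATF6 is cut in the Golgi to release a factor that acts on chaperone genes through the ER stress response element.

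That element is printed here in the promoters of the 6 genes that carried it, because it is the stretch these genes are known to share. RefSeq promoters of GRCh38.p14, from 250 bases before to 50 bases after each gene's RefSeq start, were found for all 10 genes and searched on both strands. The RefSeq start lay 303 bases from the annotated gene start for HSP90B1, 306 for DNAJB9 and 151 for PDIA4, and nearer for the other genes. The ER stress response element (ERSE), CCAAT and CCACG with 9 bases of any kind between them, was in 27 of 35116 promoters (0.0769%), among them those of HSPA5, HSP90B1, CALR and XBP1. The shorter ERSE-II, ATTGG and CCACG with 1 base of any kind between them, was in 19 promoters (0.0541%), among them HERPUD1 and SDF2L1. Both motifs contain CCAAT on 1 strand, which alone was in 34.6% of all promoters and in all 10 here. HERPUD1 also held the ATF4-C/EBP motif TTGCATCA, found in 0.866% of promoters. The core TGACGTGG of the unfolded protein response element was in 0.729% of promoters and in none of the 10. These motifs were defined in part on HSPA5, HSP90B1, CALR and HERPUD1 themselves, so finding them there is a description. Capitals mark the motif matches, and each stretch is written 5′ to 3′ on the strand of its gene and ends before the first annotated exon. HSPA5 is from chr9:125241344-125241593 (minus strand), XBP1 from chr22:28800598-28800682 (minus strand), HERPUD1 from chr16:56931892-56932047, SDF2L1 from chr22:21642052-21642260 and CALR from chr19:12938359-12938577, the last 3 on the plus strand.
HSPA5: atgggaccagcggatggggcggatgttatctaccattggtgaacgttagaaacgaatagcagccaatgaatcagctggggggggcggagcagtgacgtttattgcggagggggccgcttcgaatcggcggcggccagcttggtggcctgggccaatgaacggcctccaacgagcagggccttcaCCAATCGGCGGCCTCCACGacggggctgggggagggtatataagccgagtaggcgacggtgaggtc
XBP1: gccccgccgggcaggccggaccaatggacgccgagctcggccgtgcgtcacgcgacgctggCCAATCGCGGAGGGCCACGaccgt
HERPUD1: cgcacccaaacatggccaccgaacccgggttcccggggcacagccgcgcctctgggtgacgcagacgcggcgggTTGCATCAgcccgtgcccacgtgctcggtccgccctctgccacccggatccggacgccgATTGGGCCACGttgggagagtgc
SDF2L1: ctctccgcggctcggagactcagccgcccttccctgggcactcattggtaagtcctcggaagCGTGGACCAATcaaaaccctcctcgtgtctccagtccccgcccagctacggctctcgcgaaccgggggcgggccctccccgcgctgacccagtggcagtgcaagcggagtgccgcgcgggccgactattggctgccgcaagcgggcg
CALR: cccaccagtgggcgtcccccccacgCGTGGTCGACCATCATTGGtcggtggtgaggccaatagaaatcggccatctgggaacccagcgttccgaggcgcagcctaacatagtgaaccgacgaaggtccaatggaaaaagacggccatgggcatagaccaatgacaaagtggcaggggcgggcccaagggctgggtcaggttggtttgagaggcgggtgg
In CALR and SDF2L1 the match is on the opposite strand to the gene, so the capitals show its reverse complement. The promoter of HSP90B1 held ERSE at 2 places, chr12:103930216-103930234 on the strand of the gene and chr12:103930321-103930339 on the other. Both lie before the RefSeq start but after the annotated gene start at 103930107. Each is written in the direction of the motif.
HSP90B1 first site: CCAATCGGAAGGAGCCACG
HSP90B1 second site: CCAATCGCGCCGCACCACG
No match to ERSE or ERSE-II was in the windows of PDIA4, DNAJB9, DNAJC3 and EDEM1. For HSP90B1, DNAJB9 and EDEM1, 0 of the 250 bases before the RefSeq start lay outside annotated exons, and sequence further upstream was not searched.

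HSPA5 encodes BiP, the HSP70 chaperone of the ER lumen that also holds the 3 sensors inactive. Its level was 1073 FPKM in adherent HCT116 cells, 219 FPKM in HCT116 spheroids, 243 FPKM in adherent LOVO cells and 281 FPKM in LOVO spheroids. Adherent HCT116 cells stood apart from the other 3 libraries, which lay close together. HSPA5 ranked 28 among all genes by FPKM in adherent HCT116 cells and between 78 and 126 in the other libraries. It was 4.91-fold lower in HCT116 spheroids, with a log2 ratio of -2.29 (counting interval -2.32 to -2.27). In LOVO spheroids it was 1.16-fold higher, with a log2 ratio of 0.21 (0.18 to 0.24). In bulk RNA, fewer cells with the mRNA and less of it per cell cannot be told apart. HSPA5 lies on the minus strand of chromosome 9 (GRCh38, 125234853 to 125241330), and 9.54% of the 50-base stretches of its transcripts also occur in other genes, chiefly the pseudogenes AC105250.1 and AL354702.1, which were at 0.231 FPKM or less in every library.

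HSP90B1 encodes GRP94, the HSP90 chaperone of the ER. It was at 444 FPKM in adherent HCT116 cells and 175 FPKM in HCT116 spheroids, and at 236 FPKM in adherent LOVO cells and 293 FPKM in LOVO spheroids. The order of the 4 libraries was led by adherent HCT116 cells and ended with HCT116 spheroids. HSP90B1 was 2.54-fold lower in HCT116 spheroids (log2 ratio -1.34, counting interval -1.37 to -1.32) and 1.24-fold higher in LOVO spheroids (0.31, 0.29 to 0.34). Of its 50-base stretches, 4.69% occur in other genes, and 357 exonic bases overlap exons of 3 other genes, so its reads cannot be fully separated from theirs. HSP90B1 lies on the plus strand of chromosome 12 (103930107 to 103953645). The pseudogene HSP90B2P was at 0.354 FPKM or less.

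CALR encodes calreticulin, a lectin chaperone that binds sugar-bearing proteins. The 4 levels were 433 FPKM in adherent HCT116 cells, 152 FPKM in HCT116 spheroids, 270 FPKM in adherent LOVO cells and 330 FPKM in LOVO spheroids. CALR thus had the same order of libraries as HSP90B1. In HCT116 spheroids it was 2.85-fold lower (log2 ratio -1.51, counting interval -1.55 to -1.47), and in LOVO spheroids 1.22-fold higher (0.29, 0.26 to 0.32). In both LOVO libraries CALR was the most abundant of the 10 genes. It lies on the plus strand of chromosome 19 (12938578 to 12944489), and 270 of its exonic bases overlap an exon of another gene.

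SDF2L1, which keeps BiP clients from aggregating together with a J-domain partner, was at 78.2 FPKM in adherent HCT116 cells, 23.9 FPKM in HCT116 spheroids, 32.9 FPKM in adherent LOVO cells and 66.2 FPKM in LOVO spheroids. The high libraries were adherent in one line and spheroids in the other. It was 3.27-fold lower in HCT116 spheroids (log2 ratio -1.71, counting interval -1.86 to -1.56) and 2.01-fold higher in LOVO spheroids (1.01, 0.88 to 1.15). SDF2L1 lies on the plus strand of chromosome 22 (21642261 to 21644298). These intervals are wider than those of HSPA5, since SDF2L1 had between 442 and 1751 reads per library and HSPA5 between 14359 and 85477.

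PDIA4, a protein disulfide isomerase that forms and rearranges disulfide bonds, followed the same pattern. Its level was 303 FPKM in adherent HCT116 cells and 100.3 FPKM in HCT116 spheroids, and it was 67.1 FPKM in adherent LOVO cells and 136 FPKM in LOVO spheroids. It was 3.02-fold lower in HCT116 spheroids (log2 ratio -1.59, counting interval -1.64 to -1.55). In LOVO spheroids it was 2.03-fold higher (1.02, 0.97 to 1.07), the highest log2 ratio among the 10 genes in this line. PDIA4 lies on the minus strand of chromosome 7 (149003062 to 149028641). By rank, PDIA4 stood at 90 in adherent HCT116 cells and 678 in adherent LOVO cells.

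The J-domain partners of BiP differed less. DNAJC3, which encodes the co-chaperone p58IPK, was at 22.2 FPKM in adherent HCT116 cells, 14.1 FPKM in HCT116 spheroids, 10.8 FPKM in adherent LOVO cells and 15.3 FPKM in LOVO spheroids. Its log2 ratio was -0.65 in HCT116 (counting interval -0.74 to -0.55) and 0.50 in LOVO (0.39 to 0.61). DNAJB9, which encodes ERdj4, was at 10.1 and 8.71 FPKM in adherent cells and spheroids of HCT116 and at 20.1 and 22.0 FPKM in those of LOVO. For DNAJB9 the line separated the libraries and the growth form hardly did. Its log2 ratios of -0.22 in HCT116 (-0.40 to -0.03) and 0.13 in LOVO (0.01 to 0.25) had counting intervals that came close to 0. DNAJC3 lies on chromosome 13 (95677139 to 95794989) and DNAJB9 on chromosome 7 (108569568 to 108574850), both on the plus strand, and 183 exonic bases of DNAJB9 overlap exons of 2 other genes.

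HERPUD1 and EDEM1 serve ER-associated degradation. HERPUD1, a membrane protein that gathers the degradation machinery, was at 79.4 FPKM in adherent HCT116 cells, 11.1 FPKM in HCT116 spheroids, 81.3 FPKM in adherent LOVO cells and 43.7 FPKM in LOVO spheroids. Its levels in the 2 adherent libraries did not differ beyond counting error (log2 ratio 0.03, counting interval -0.01 to 0.08). HERPUD1 had the lowest log2 ratio of the 10 genes in HCT116, at -2.84 (-2.94 to -2.74), which is 7.15-fold lower, and also in LOVO, at -0.90 (-0.95 to -0.84), which is 1.86-fold lower. By FPKM it ranked 411 among all genes in adherent HCT116 cells, but 3946 in the spheroids of that line. The gene lies on the plus strand of chromosome 16 (56932048 to 56944863). EDEM1, which marks misfolded glycoproteins for disposal, stayed between 8.33 and 11.8 FPKM, at 11.8 and 9.32 FPKM in HCT116 and 8.33 and 10.7 FPKM in LOVO. Its log2 ratio was -0.34 in HCT116 (-0.45 to -0.23) and 0.37 in LOVO (0.25 to 0.49), and 653 of its exonic bases overlap an exon of a gene on the opposite strand. EDEM1 lies on the plus strand of chromosome 3 (5187646 to 5219957).

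XBP1, the transcription factor that IRE1 activates by splicing, was at 28.2 FPKM in adherent HCT116 cells, 21.8 FPKM in HCT116 spheroids, 107 FPKM in adherent LOVO cells and 63.5 FPKM in LOVO spheroids. Both LOVO libraries were above both HCT116 libraries. XBP1 was 1.29-fold lower in HCT116 spheroids (log2 ratio -0.37, counting interval -0.48 to -0.26) and 1.68-fold lower in LOVO spheroids (-0.75, -0.81 to -0.69). The FPKM of a gene sums spliced and unspliced mRNA, so it gives no measure of XBP1 splicing. The gene lies on the minus strand of chromosome 22 (28794555 to 28800597).

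**Figure D1:**
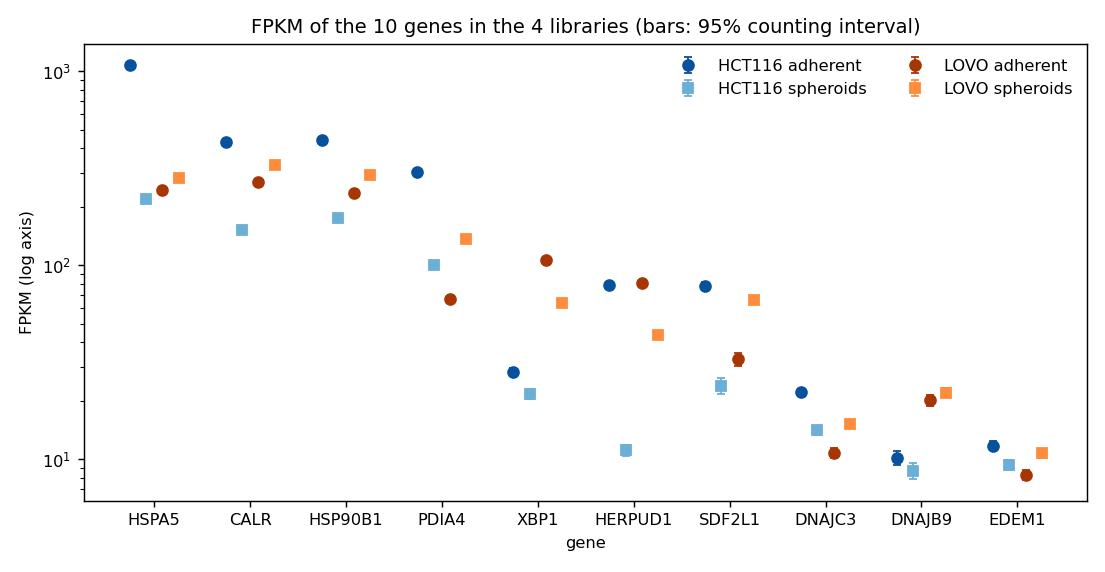
FPKM (log axis) of the 10 genes in adherent cells (circles) and spheroids (squares) of HCT116 and LOVO, with 95% counting intervals as bars that are mostly smaller than the points. HSPA5 at 1073 FPKM in adherent HCT116 cells lies far above its other 3 values of 219 to 281 FPKM, and HERPUD1 at 11.1 FPKM in HCT116 spheroids far below its others.

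Summed over the 10 genes, the level was 2482 FPKM in adherent HCT116 cells, 734 FPKM in HCT116 spheroids, 1076 FPKM in adherent LOVO cells and 1262 FPKM in LOVO spheroids. As a share of all reads on genes, this was 0.923%, 0.296%, 0.359% and 0.477%, in the same order. Adherent HCT116 cells had the highest level of the 4 libraries for 7 genes (HSPA5, HSP90B1, PDIA4, SDF2L1, CALR, DNAJC3 and EDEM1), and HCT116 spheroids had the lowest for 7 genes and the highest for 0. How often this holds over all genes was not counted, so these counts only describe the 10 genes. The 10 genes spanned a 106-fold range of FPKM in adherent HCT116 cells and a 25.1-fold range in HCT116 spheroids.

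The next comparisons used the difference of log2(FPKM + 1), which understates the change of low genes, and the more so the lower they are. In HCT116 spheroids, 10 of 10 genes were below 0, as were 53.4% of all genes compared. HSPA5, HSP90B1, CALR, SDF2L1, PDIA4 and HERPUD1 were below -1, a limit that 3.33% of all genes passed, and 0 of the 10 were above 1, as 2.19% of all genes were. HSPA5 and HERPUD1 were also below -2, the limit used in the study, which 0.506% passed. The median of the 10 genes was -1.42, against -0.03 over all genes compared. HERPUD1 stood at percentile 0.0901 and HSPA5 at percentile 0.236 of all genes compared, and SDF2L1, PDIA4, CALR and HSP90B1 within the lowest percentiles up to 1.91. DNAJC3 (-0.61), XBP1 (-0.36), EDEM1 (-0.31) and DNAJB9 (-0.20) were nearer to 0. The counting interval left out 0 for all 10 genes, but it also did so for 62.2% of all genes compared. Since the 10 genes were chosen with earlier results of these data known, their counts and percentiles only describe them.

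In LOVO spheroids, 8 of 10 genes were above 0, as were 45.5% of all genes compared. PDIA4 was above 1 at 1.01, a limit passed by 8.57% of all genes, and SDF2L1 lay just under it at 0.99. The other genes above 0 were DNAJC3 (0.46), EDEM1 (0.33), HSP90B1 (0.31), CALR (0.29), HSPA5 (0.21) and DNAJB9 (0.13). XBP1 at -0.74 and HERPUD1 at -0.88 were below 0, and 0 of the 10 genes were below -1, which 7.85% of all genes were. The median of the 10 genes was 0.30, against -0.06 over all genes compared. The counting interval left out 0 for all 10 genes and for 74.1% of all genes. The low epithelial and the higher summed fibroblast and endothelium markers of the LOVO libraries, given above, stand beside each of these values, and their part in them was not tested.

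Read side by side, 8 genes were lower in HCT116 spheroids and higher in LOVO spheroids, a combination found in 17.9% of all genes compared. HSPA5, HSP90B1, PDIA4, SDF2L1 and CALR were below -1 in HCT116 and above 0 in LOVO, as were 0.762% of all genes. XBP1 and HERPUD1 were lower in either line, as were 35.1% of all genes. Whether the lines differ in their response cannot be tested with 1 library per condition.

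**Figure D2:**
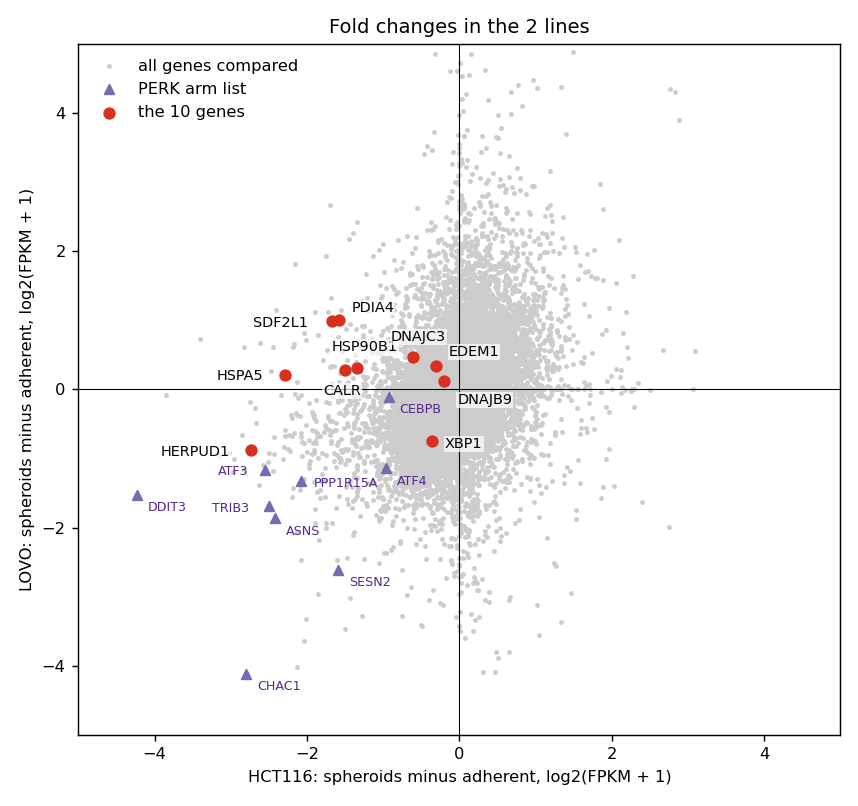
Difference of log2(FPKM + 1) between spheroids and adherent cells in HCT116 (x axis) and LOVO (y axis) for all 14429 genes compared (grey, 8 of them outside the drawn range), the 10 genes (red circles) and 9 genes of the PERK arm (purple triangles). The 10 genes lie left of 0 on the x axis, 8 of them above 0 on the y axis. The 9 PERK arm genes lie below 0 on both, as do 35.1% of all genes compared.

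The lines were also compared within each growth form, which uses the same 4 libraries again. Between adherent cells, XBP1 was higher in LOVO by more than 1 (1.89), as were 17.4% of all genes, and HSPA5 (-2.14), PDIA4 (-2.16) and SDF2L1 (-1.22) were lower by more than 1, as were 16.4%. DNAJB9 was at 0.93 and HERPUD1 at 0.03, and the remaining genes lay between -0.97 for DNAJC3 and -0.45 for EDEM1. In all, 7 of the 10 genes were below 0 between adherent cells, as were 46.9% of all genes. Between spheroids, 10 of 10 genes were higher in LOVO, as were 51.6% of all genes. DNAJB9 (1.25), XBP1 (1.50), HERPUD1 (1.88), SDF2L1 (1.43) and CALR (1.12) were higher by more than 1, as were 17.7% of all genes. The smallest differences between spheroids were 0.10 for DNAJC3 and 0.19 for EDEM1. The median of the 10 genes was -0.79 between adherent cells and 0.93 between spheroids, against 0.07 and 0.04 over all genes. The counting interval left out 0 for 9 of the 10 genes between adherent cells (83.1% of all genes), HERPUD1 being the exception, and for all 10 between spheroids (82.3%). The difference between the lines thus had opposite signs in the 2 growth forms for HSPA5, HSP90B1, PDIA4, SDF2L1, CALR, DNAJC3 and EDEM1. The share of all genes with such a change of sign was not counted.

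**Figure D3:**
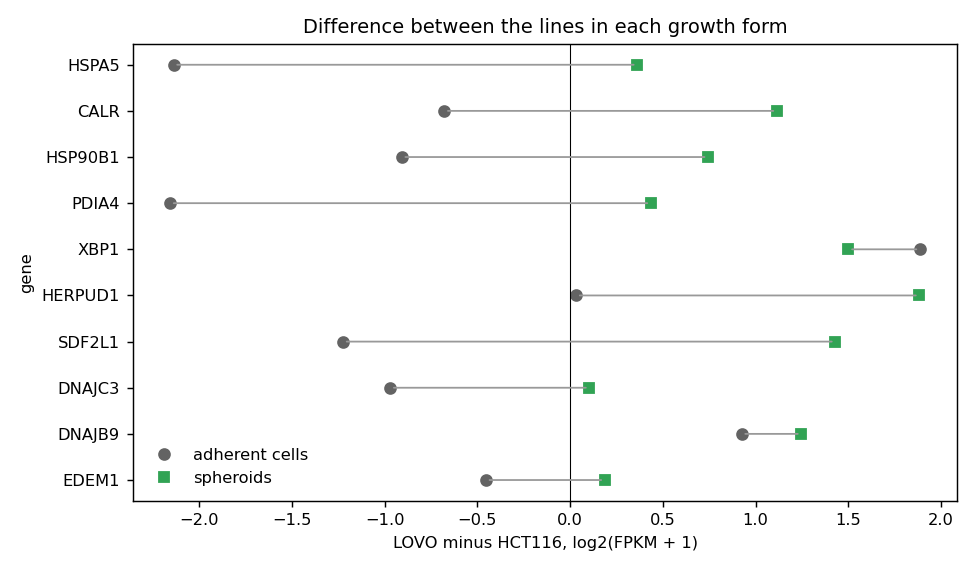
Difference of log2(FPKM + 1) between LOVO and HCT116 in adherent cells (grey circles) and in spheroids (green squares) for each of the 10 genes, joined by a line. All 10 squares lie above 0, from 0.10 for DNAJC3 to 1.88 for HERPUD1, and 7 of the 10 circles lie below 0.

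Only with the 2 lines taken as replicates of the growth form could a test be made. limma with the cell line as covariate had 1 residual degree of freedom and called 0 of 14429 genes at an adjusted p under 0.05, with 1545 genes at an unadjusted p under 0.05. HERPUD1 had a mean log2 difference of -1.81 ± 0.49 (SE, limma, 2 lines) and an adjusted p of 0.462, being lower in 2 of 2 lines. HSPA5 was at -1.04 ± 0.65 (SE, limma), with an adjusted p of 0.533 and opposite signs in the 2 lines. The adjusted p from limma was between 0.462 and 0.990 over the 10 genes. A test of this size cannot show that the levels are alike.

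The other genes of the pathway were read from lists of 120 genes that exclude the 10, and 119 of these were compared. DERL3, of ER-associated degradation, averaged 0.874 FPKM and was left out by the filter. It was at 0.308 FPKM in adherent LOVO cells and 3.10 FPKM in LOVO spheroids. In HCT116 spheroids 89 of the 119 were below 0, 8 were below -1 (6.72%) and 1 was above 1 (0.840%). Their median was -0.21. Over all genes compared in HCT116, 53.4% were below 0, 3.33% below -1 and 2.19% above 1. In LOVO spheroids 56 were below 0, 9 were below -1 (7.56%) and 5 were above 1 (4.20%), with a median of 0.03. Over all genes compared in LOVO, 53.5% were below 0, 45.5% above 0, 7.85% below -1 and 8.57% above 1. Most of the genes below -1 came from the PERK arm, which gave 7 of the 8 in HCT116 and 8 of the 9 in LOVO. Without it, 110 genes were left. Of these, 1 was below -1 (0.909%) and 1 above 1 (0.909%) in HCT116. In LOVO 1 was below -1 (0.909%) and 5 were above 1 (4.55%). Each of these shares was under that of all genes compared. The shares over all genes also stand beside the counts of each list below.

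Among the other chaperones and co-chaperones (20 genes), 13 were below 0 in HCT116 with a median of -0.14, and 16 were above 0 in LOVO with a median of 0.30. MANF, a small ER protein that binds BiP, was the 1 gene below -1 in HCT116 (-1.44) and was at 0.95 in LOVO, with levels of 71.8 and 25.9 FPKM in adherent cells and spheroids of HCT116 and 25.1 and 49.3 FPKM in those of LOVO. MANF is named after its values were seen, as the only member of this list below -1. The large HSP70-type chaperone HYOU1, also named after its values were seen, was at -0.64 in HCT116 and 0.49 in LOVO. The membrane lectin CANX, a partner of calreticulin, was at -0.48 in HCT116 and -0.54 in LOVO. FKBP7, a prolyl isomerase, was above 1 in HCT116 (1.30), from 1.64 to 5.51 FPKM, and was at 0.32 in LOVO. Without the added 1, the log2 ratio of FKBP7 was 1.75 in HCT116 and 0.38 in LOVO. The nucleotide exchange factor SIL1 was at -0.30 in HCT116 and 0.99 in LOVO, and DNAJB11 was at -0.68 and -0.03.

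Of 17 disulfide isomerases and oxidases other than PDIA4, 13 were below 0 in HCT116 and none below -1, while in LOVO 11 were above 0 and 2 above 1. PDIA5 was at 1.76 in LOVO, with 39.7 FPKM in the spheroids, and at 0.09 in HCT116. The sulfhydryl oxidase QSOX1 was at 1.14 in LOVO and 0.27 in HCT116. TXNDC11 was at -0.43 in HCT116 and -0.73 in LOVO, and TMX2 at -0.46 and -0.55. In ER-associated degradation, 18 of the 22 compared genes other than HERPUD1 and EDEM1 were below 0 in HCT116, and 13 of 22 in LOVO. The mannosidase MAN1B1 was at -0.09 in HCT116 and 1.09 in LOVO. VCP, the ATPase that pulls substrates out of the membrane, was at -0.37 and -0.66, DERL2 at -0.37 and -0.48, and EDEM3 at 0.50 and 0.80.

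Steps before and after folding lay near the middle of all genes in HCT116. The median was -0.15 for translocation and signal peptidase (17 genes), -0.17 for N-glycan transfer and trimming (12 genes) and -0.13 for ER export and retrieval (16 genes), with 0 genes past 1 in any of the 3. In LOVO these medians were -0.44, 0.23 and 0.28. TRAM1, which sits at the translocation channel, was at 0.03 in HCT116 and -1.58 in LOVO, from 176 to 58.2 FPKM. SPCS2 was at -0.52 and -0.58, SSR1 at 0.29 and 0.36, and SSR4 at 0.37 and 0.42. The glucosidase MOGS was at 0.27 in HCT116 and 1.34 in LOVO, UGGT2 at 0.49 and 0.36, OSTC at -0.56 and -0.13 and STT3B at -0.28 and -0.24. KDELR3, a receptor that returns chaperones to the ER, was at 0.44 and 1.31, LMAN1 at 0.12 and 0.78, MCFD2 at -0.27 and -0.71 and SEC24B at -0.08 and -0.46.

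The sensors themselves differed by less than 1 in both lines. In HCT116 all 7 genes of this list, XBP1 included, were below 0 (53.4% of all genes compared), with a median of -0.23. In LOVO 4 of 7 were below 0 (53.5%), with a median of -0.29. ERN1, which encodes IRE1, was at -0.23 in HCT116 and 0.22 in LOVO, and EIF2AK3, which encodes PERK, at -0.08 and 0.45. ATF6 was at -0.51 and -0.43 and its relative ATF6B at -0.63 and 0.01. The proteases that cut ATF6 were at -0.09 and -0.29 (MBTPS1) and -0.23 and -0.70 (MBTPS2).

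The PERK arm, ATF4 and genes it is known to act on, was lower in either kind of spheroids for 9 of 9 genes. ATF4, which other stresses than ER stress also raise, was at 291 FPKM in adherent HCT116 cells, 149 FPKM in HCT116 spheroids, 287 FPKM in adherent LOVO cells and 129 FPKM in LOVO spheroids, a difference of -0.96 and -1.14. DDIT3, which encodes the stress factor CHOP, was at 189, 9.11, 36.1 and 11.9 FPKM in the same order. DDIT3 shared the high value in adherent HCT116 cells with HSPA5, but it was lower in LOVO spheroids, where HSPA5 was not. PPP1R15A, which reverses the translation block, was at -2.08 in HCT116 and -1.33 in LOVO, and TRIB3 at -2.49 and -1.69. CHAC1, which breaks down glutathione, was at -2.80 and -4.12, and ATF3 at -2.55 and -1.17. The asparagine synthetase ASNS was at -2.42 and -1.87 and SESN2 at -1.59 and -2.61. ASNS was at 1.42 FPKM in HCT116 spheroids and 0.268 FPKM in LOVO spheroids, where the added 1 weighs heavily. Its log2 ratio without the added 1 was -3.07 in HCT116 and -3.76 in LOVO. CEBPB, at -0.93 and -0.11, was the 1 gene of the list that was above -1 in both lines.

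Lists of genes known as targets of ATF6 and of XBP1 were read in the same way. All 12 ATF6 targets were below 0 in HCT116 (53.4% of all genes compared), with a median of -1.39. In LOVO 9 of 12 were above 0 (45.5%), with a median of 0.40. However, 6 of the 12 belong to the 10 genes. The median of the other 6 was -0.66 in HCT116, and in LOVO it was 0.51. Among these were CRELD2 (-0.68 and 0.72), PDIA6 (-0.40 and 0.54) and SEL1L, the partner of the degradation ligase HRD1 (-0.63 and -0.01). The 12 XBP1 targets had a median of 0.03 in HCT116, which turned to -0.040 with TMM-style scaling, and of 0.23 in LOVO. Of these 12, 3 belong to the 10 genes. The other 9 had a median of 0.10 in HCT116, with 2 below 0 and 7 above 0. In LOVO their median was -0.44, with 5 below 0 and 4 above 0. Among these 9, ERLEC1 was at 0.26 and 0.47 and SSR3 at -0.20 and -0.70.

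Of the 6 genes with ERSE or ERSE-II in the promoters printed above, HSPA5, HSP90B1, CALR, HERPUD1 and SDF2L1 were below -1 in HCT116 and XBP1 was not, and PDIA4, with no match, was. A list of the other 24 compared genes with either motif was made after seeing the data. In HCT116 spheroids 20 of the 24 were below 0 (53.4% of all genes), with a median of -0.23, and 1 was below -1 (3.33%). In LOVO spheroids 13 of the 24 were below 0, as were 53.5% of all genes, with a median of -0.03. Of the 24, 2 were below -1 in LOVO (7.85% of all genes) and 1 was above 1 (8.57%). CANX, CRELD2, PDIA6 and HYOU1 belong to this list, which therefore overlaps the lists above.

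The genes with a pattern most like that of HSPA5 were sought among 4881 genes that averaged 10 FPKM or more, by the Euclidean distance between centred log2(FPKM + 1) values over the 4 libraries. The nearest was FOS, an immediate early transcription factor, at a distance of 0.405, with 52.9, 6.62, 8.13 and 9.70 FPKM in adherent HCT116, HCT116 spheroids, adherent LOVO and LOVO spheroids. UBE2S (0.615), GADD45B (0.643), DNAJB1 (0.773) and TUBB4B (0.845) followed. DNAJB1, a cytosolic J-domain co-chaperone, was at 165 FPKM in adherent HCT116 cells and between 33.9 and 54.9 FPKM in the other libraries. With 4 libraries, such likeness is a description of a high value in 1 library.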

How the data were processed

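The authors deposited 1 table of FPKM values for 58735 genes in 4 libraries, prepared per the labels with a SMARTER mRNA-Seq kit. The aligner and the counter are not given in the sources used here. The submitters' processing notes name the mouse builds GRCm38 and mm10, but the gene identifiers are human and all matched GENCODE 29 (GRCh38). The study's methods name edgeR, which was not used here. FPKM times gene length gave whole multiples of 1 step per library for 100% of values above 0 (relative tolerance 1e-06), so reads were recovered. The library sizes behind the FPKM were 0.907 to 1.09 times the recovered totals. With 3 reads as the floor, a gene of 1 kb is at 0.147 to 0.179 FPKM.

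Differences were taken on log2(FPKM + 1) over 14429 genes, those whose FPKM averaged 1 or more, with a limit of 1. Counting intervals are on the log2 ratio of FPKM without the pseudocount. limma 3.58.1 (R 4.3.3) was fitted across lines and tested on simulated data, where it called 174 of 200 genes changed by 2 on the log2 scale, with 10 false calls, among 14477 genes. In the simulation both lines had the same change and every gene the same dispersion. It therefore cannot show how the fit performs where the lines differ in direction or size of change. Python 3.11.15 and scipy 1.17.1 did the rest. The members and lists were chosen with earlier results of these data known. Named genes were the 10 members, all sensors and PERK arm genes, of each other list the 2 highest and 2 lowest by the mean difference over both lines, and the 5 nearest to HSPA5. Alternatives were pseudocounts of 0.1 and 0.01, other filters, TPM, TMM-style scaling, centring, protein-coding genes only, a limit of 2 and limma without the cell line.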

Additional observations from a re-analysis of the deposited data

Results flagged for a closer look

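The following genes were above 0 in the spheroids of one line and below 0 in those of the other on the log2(FPKM + 1) scale, with 1 library per condition, so the difference between the lines was not tested. Among the 10 genes, HSPA5 was at -2.29 in HCT116 and 0.21 in LOVO, HSP90B1 at -1.34 and 0.31, CALR at -1.51 and 0.29, and SDF2L1 at -1.67 and 0.99. PDIA4 was at -1.58 in HCT116 and 1.01 in LOVO, DNAJC3 at -0.61 and 0.46, EDEM1 at -0.31 and 0.33, and DNAJB9 at -0.20 and 0.13. Among other pathway genes, SIL1 was at -0.30 in HCT116 and 0.99 in LOVO, MAN1B1 at -0.09 and 1.09, CRELD2 at -0.68 and 0.72, and PDIA6 at -0.40 and 0.54. Of the sensors, ERN1 was at -0.23 and 0.22, EIF2AK3 at -0.08 and 0.45, and ATF6B at -0.63 and 0.01. TRAM1 had the opposite signs, at 0.03 in HCT116 and -1.58 in LOVO.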

How the results depend on the processing

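Each value was recomputed under the alternatives named under the processing. Of 320 differences of the 10 genes, 319 kept their direction, 80 of 80 in HCT116 and 80 of 80 in LOVO, and the exception was HERPUD1 between adherent cells, at -0.042 with centring. The limma fit already pairs the libraries within each line. The labels give no replicate numbers to block on, and with 1 library per condition none was left out. At a limit of 2, the 10 genes gave 2 lower in HCT116, 0 higher in LOVO, and 0 higher in LOVO between adherent cells and between spheroids, and the other pathway genes gave 0 higher in HCT116, 0 higher in LOVO and 2 lower in LOVO. With a mean FPKM of 5, which left out FKBP7, the other pathway genes gave 0 higher in HCT116. SDF2L1 joined PDIA4 above 1 in LOVO spheroids (2 of the 10 genes) with either pseudocount, TPM, TMM-style scaling and centring, when 14.4% (pseudocount 0.1), 15.7% (0.01), 15.7% (TPM), 8.79% (TMM-style) and 9.36% (centring) of all genes were above 1. The other pathway genes above 1 in LOVO were 8 of 119 with either pseudocount and with centring and 14 of 119 with TPM, beside the same shares of all genes. Between adherent cells, the genes higher in LOVO by more than 1 went from 1 to 2 of the 10 with TPM, when 21.6% of all genes were. TPM moved the median of all genes from -0.06 to 0.10 in LOVO and from 0.04 to 0.26 between spheroids. Beside that shift, the median of the 10 genes was 0.51 in LOVO and 1.17 between spheroids with TPM, 1.03 between spheroids with TMM-style scaling and -0.87 between adherent cells with centring, and that of the other pathway genes was 0.23 in LOVO with TPM. Medians that changed sign were those of the XBP1 targets in HCT116 (-0.040 with TMM-style scaling) and of ER-associated degradation in LOVO (0.187 with TPM, 0.000491 with TMM-style scaling and 0.041 with centring). The mean difference from limma changed sign for DNAJB9 (0.070 with TPM), DNAJC3 (0.035 with TPM) and EDEM1 (-0.013 with TMM-style scaling). limma called 0 genes at an adjusted p under 0.05 under each of its alternatives, with 163 genes at an unadjusted p under 0.05 without the cell line and up to 1906 with no filter. The cause of these shifts was not tested.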
